A study of Homo sapiens with 24 samples.

Results

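Ribosome biogenesis was followed here through 43 genes whose proteins transcribe, modify, fold and assemble ribosomal RNA in the nucleolus. The rule that chose them used names and no measured values, although earlier results of these data were known. Each was found by symbol in the 72 h table and by the same Ensembl identifier in the 48 h table, and BOP1 and PES1, whose symbols are altered in both tables, were read from their altered form. The 43 genes are part of 19818 genes with a unique identifier at 72 h and of 61541 at 48 h, and all 43 passed the filter on low values in every comparison. Bulk RNA came from U2932, an established line grown from a diffuse large B-cell lymphoma. The cell line entries of the siRNA samples read U2933, U2934, U2935 and U2936, while their treatment text names U2932, and by the labels alone a difference of line and the siRNA cannot be told apart. At 48 h there were 6 libraries of control cells given phosphate-buffered saline, 4 of cells given PNA2 and 4 of cells given siRNA against MYC. At 72 h there were 5 control and 5 PNA2 libraries. PNA2 (gPNA2 in the labels), a peptide nucleic acid of the gamma type, has bases on a peptide-like backbone, is aimed at MYC and was added to the medium at 8 mM as the labels write it, a unit in some doubt. The siRNA was given at 500 nM by electroporation, and no electroporated control is named, so siRNA and electroporation cannot be told apart. Controls carry the genotype entry WT and all treated cells the entry cmyc knockdown.

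RNA polymerase I transcribes the ribosomal RNA precursor in the nucleolus. Small nucleolar ribonucleoproteins then guide its methylation (box C/D) and its conversion of uridine to pseudouridine (box H/ACA), and a succession of assembly factors folds and cuts it into the small and large subunits. MYC is a transcription factor known to bind and raise many of these genes, at the DNA word CACGTG (an E-box) among others, which is why ribosome synthesis is a textbook readout of MYC in lymphoma.

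The members were well expressed before any treatment. In the 72 h controls the mean level per kilobase of merged exon, in size-factor-normalized reads, ran from 2920 for NPM1, the histone chaperone of the nucleolus, through 2100 for FBL, the methyltransferase of box C/D particles, down to 77.3 for DDX10 and 68.9 for POLR1C. NPM1 lay at percentile 99.2 of all genes tested and POLR1C at 45.6. The catalytic core subunits of RNA polymerase I stood in the lower part, with POLR1A at 151 and POLR1B at 122 per kilobase. NPM1 has 45 named pseudogenes, so its count may have been split or enlarged by the counting.

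Of the 43 members, 36 have a promoter in the RefSeq table (GRCh38.p14, 250 bases before to 50 after a start). DDX18, RRP12, RRP1B, RRS1, NOP58, NOLC1 and BOP1 have no entry there. CACGTG, which reads the same on both strands, occurred in 17 of the 36 (47.2%), against 10.9% of 15843 protein-coding genes. Counted by promoter, it was in 38.6% of the members' promoters, in 8.34% of those of protein-coding genes, in 10.02% of those with a GC content over 55% and in 7.26% of all. Most of the members' sites lay close to the start: 16 of 18 (88.9%) began within 40 bases of it, against 27.5% of 2077 in protein-coding promoters, a window set after the positions were seen. Windows from 100 bases before to 30 after the start are shown for 5 members that responded differently below, with CACGTG in capitals. For DDX21, GNL3 and LYAR the promoter with the word was picked, and each has another listed promoter without it.
FBL, chr19:39846350-39846479, minus strand: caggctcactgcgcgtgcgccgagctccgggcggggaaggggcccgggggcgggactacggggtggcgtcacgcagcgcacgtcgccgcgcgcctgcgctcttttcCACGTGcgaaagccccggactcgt
NOP10, chr15:34343107-34343236, minus strand: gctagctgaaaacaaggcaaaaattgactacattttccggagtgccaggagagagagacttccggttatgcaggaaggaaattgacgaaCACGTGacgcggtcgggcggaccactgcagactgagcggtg
DDX21, chr10:68956547-68956676, plus strand: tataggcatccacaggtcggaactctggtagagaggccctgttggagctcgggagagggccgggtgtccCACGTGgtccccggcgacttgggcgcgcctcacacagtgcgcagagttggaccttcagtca
GNL3, chr3:52685932-52686061, plus strand: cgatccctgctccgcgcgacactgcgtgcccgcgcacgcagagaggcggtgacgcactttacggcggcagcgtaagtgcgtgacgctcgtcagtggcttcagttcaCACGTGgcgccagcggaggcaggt
LYAR, chr4:4289992-4290121, minus strand: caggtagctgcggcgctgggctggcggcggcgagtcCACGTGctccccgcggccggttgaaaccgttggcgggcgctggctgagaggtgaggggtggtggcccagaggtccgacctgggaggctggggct
Counting the start as base 1, the word began at base 7 in FBL and GNL3, at -11 in NOP10, at -31 in DDX21 and at -64 in LYAR. With the siRNA 8 of 17 members with the word fell (median log2 difference -0.33) and 15 of 19 without it (-0.41). With PNA2 at 48 h 4 of 17 with it fell (-0.21) and 2 of 19 without it (-0.15), and at 72 h 6 of 17 (-0.12) and 4 of 19 (-0.06). The split thus ran one way with the siRNA and the other way with PNA2, and it was not tested.

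Before the comparisons, 3 features of the libraries need stating. The 48 h values were adjusted by the authors in 2 sets of libraries, called batch A (controls 1, 2 and 4, PNA2 1 and 2, all 4 siRNA) and batch B (control 3, 2 controls without a number, PNA2 3 and 4), which the labels do not name and which were read from tied values. The controls of A lay above those of B: the mean was higher in A for 43 of 43 members, and for 27 every A control was above every B control. The same counts were not made over all genes, so they do not show whether the members differ from other genes in this. POLR1A, for example, was 3053, 3043 and 3122 in the A controls and 2452, 2399 and 2357 in the B controls. A batch term was therefore part of the 48 h fit. MYC, the targeted gene, was lower in every siRNA library (3576 to 4159, against 5348 to 7721 in the controls, log2 difference -0.82, adjusted p = 0.000396), but not lower with PNA2 at 48 h (7198 to 8997, 0.24, adjusted p = 0.114) or past the threshold at 72 h (-0.18, adjusted p = 0.794). The RNA makeup also moved with PNA2. Mitochondrially encoded RNA was 2.22% ± 0.517 of the total in 48 h controls (SD, n = 6), 4.84% ± 0.653 with PNA2 (n = 4) and 2.04% ± 0.118 with siRNA (n = 4), and at 72 h it was 4.35% ± 0.32 in controls and 7.29% ± 1.02 with PNA2 (n = 5 each). Its part in the results, like that of ribosomal protein RNA (7.84% in 48 h controls, 10.2% with PNA2 and 6.32% with siRNA, and at 72 h 7.77% and 10.8%), was not tested. Library totals ran from 11121494 to 16167951 at 48 h and from 8215064 to 13687016 at 72 h. The 7 B cell markers examined were present in every group, and the summed markers of T, myeloid and erythroid cells stayed at or below 5.2 CPM (counts scaled to a common library total). Markers of stroma and epithelium summed to between 8.0 and 29.4 CPM. The labels do not say that libraries came from separate cultures, so p-values measure the spread between these libraries, which may be technical.

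The siRNA libraries had lower values across the nucleolar genes. Of the 43 members 27 fell and none rose, against a background of 8.52% of all 14136 genes called lower and 8.72% called higher. All 43 log2 differences were below 0, with a median of -0.39 (all genes -0.01), and 34 members had an unadjusted p under 0.05. In 16 members (37.2%) every siRNA library lay below every control, as in 6.87% of all genes. Values at 48 h are given as adjusted reads divided by a library scale (TMM), and adjusted p-values are from limma over all genes tested. In bulk RNA, fewer cells expressing a gene and less of its RNA per cell cannot be told apart.

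Among RNA polymerase I subunits, 2 of 3 fell with the siRNA. POLR1B, the second largest subunit, was 934, 961, 926 and 875 in the siRNA libraries and 1098 to 1586 (median 1237) in the controls, a log2 difference of -0.56 ± 0.12 (SE, adjusted p = 0.00487). Every siRNA library was thus below the lowest control. POLR1C, shared with RNA polymerase III, was 461, 516, 516 and 507 against 521 to 726 (median 633), a difference of -0.36 ± 0.11 (adjusted p = 0.0393). POLR1A, the largest subunit, was 2173, 2267, 2341 and 2218 against 2357 to 3122 (median 2748), also without overlap, yet its difference of -0.33 ± 0.12 did not pass (adjusted p = 0.0648). Exons of POLR1C overlap other genes on the opposite strand over 1009 bases, and whether counting used the strand is not given in the sources used here. The same holds for other members, among them HEATR1 over 2095 bases and TSR1 over 1156.

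Of the nucleolar chaperones and scaffolds 4 of 5 fell, and their median of -0.58 was the lowest of the 6 role groups. NPM3, a histone chaperone related to NPM1, was 516, 463, 510 and 509 with siRNA against 548 to 1071 (median 909) in controls, a log2 difference of -0.87 ± 0.15 (adjusted p = 0.00199), or 0.546 of control. NOLC1, the scaffold that brings snoRNPs into the nucleolus, was 3763, 3865, 3673 and 3549 against 4049 to 6573 (median 5628), a difference of -0.63 ± 0.14 (adjusted p = 0.00681). The groups did not overlap for either gene. NCL (nucleolin, -0.58, adjusted p = 0.0225) and NPM1 also fell. NPM1 was 14393, 13487, 11346 and 13931 against 14496 to 22559 (median 16345) (-0.50, adjusted p = 0.0228), so that only a narrow gap separated control 3, at 14496, from the highest siRNA library. LYAR, a nucleolar zinc finger protein linked to cell growth, did not pass (-0.28, adjusted p = 0.153).

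The guide-RNA particles moved less evenly. FBL was 3816, 3862, 3936 and 3931 in the siRNA libraries, all below the controls at 4037 to 6383 (median 5894), with a difference of -0.56 ± 0.13 (adjusted p = 0.00778). Its partners in the box C/D core, NOP56 (-0.37, adjusted p = 0.0854) and NOP58 (-0.09, adjusted p = 0.649), did not pass. In the box H/ACA core, GAR1 (-0.51, adjusted p = 0.026) and NHP2 (-0.43, adjusted p = 0.0262) fell. DKC1, the pseudouridine synthase itself, was at -0.38 (adjusted p = 0.07). NOP10, the smallest protein of that core, was 1124, 1102, 1184 and 1189 against 1085 to 1416 (median 1305), and the groups overlapped.

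Assembly factors for both subunits fell, 8 of 14 for the small and 10 of 14 for the large. The most regular was RRP12, needed for export of both subunits, at 744, 731, 758 and 696 with siRNA against 897 to 1138 (median 1046) in controls, a difference of -0.59 ± 0.07 (adjusted p = 0.000127). WDR75, a subunit of the particle that starts small subunit processing, was 1303, 1381, 1229 and 1289 against 1381 to 1864 (median 1527, -0.32, adjusted p = 0.0225). BYSL, a late small subunit factor, was 756, 745, 808 and 780 against 767 to 1191 (median 1081, -0.46, adjusted p = 0.0186). HEATR1, of the same early particle as WDR75, was 1997, 2113, 1963 and 2066 against 1763 to 2686 (median 2232) and did not pass (-0.15, adjusted p = 0.468). LTV1, a small subunit export factor, was 168, 151, 133 and 136 against 139 to 193 (median 162) and did not pass either (-0.16, adjusted p = 0.449).

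Of the large subunit factors, PPAN, a factor of ribosomal RNA processing, was 181, 187, 203 and 195 with siRNA against 243 to 347 (median 288), a difference of -0.64 ± 0.12 (adjusted p = 0.00241). DDX21, an RNA helicase, was 3680, 3635, 3390 and 3502 against 3842 to 6342 (median 4842), a difference of -0.62 ± 0.11 (adjusted p = 0.00199). NOP16 was 595, 640, 669 and 650 against 722 to 1117 (median 986, -0.61, adjusted p = 0.00876). For these genes the highest siRNA library was below the lowest control. BOP1, which forms the PeBoW complex with PES1 and WDR12, was 1897, 1930, 2191 and 1904 against 2315 to 3018 (median 2677, -0.40, adjusted p = 0.0302). PES1 (-0.39) and WDR12 (-0.35) fell with it. GNL3 (nucleostemin) is the counterexample, at 2550, 2650, 2483 and 2638 against 2447 to 3106 (median 2612), a difference of -0.02 with a 95% interval from -0.30 to 0.25.

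The siRNA counts depended on single libraries more than the sizes did. The 27 members became 11, 10 and 17 without control 1, 2 or 4, 14 or 15 without any 1 siRNA library and 38 without PNA2 2, while the median stayed between -0.45 and -0.31. Calls over all genes moved too, from 1204 lower to 563, 470 and 964 without control 1, 2 or 4. They were 656 to 830 without any 1 siRNA library and 2210 without PNA2 2. The calls of POLR1C, BOP1, BYSL, NPM1 and WDR75 were among those lost in some of these fits. Without division by a library scale, 1 member was called lower and the median was -0.15. In that fit the median of all genes moved to 0.22 and 96.6% of the genes called were higher, against 50.6% with the scale, so relative to all genes the members were still lower. Within batch A alone 33 members fell (median -0.45), against 8.00% of genes in that fit.

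**Figure D1:**
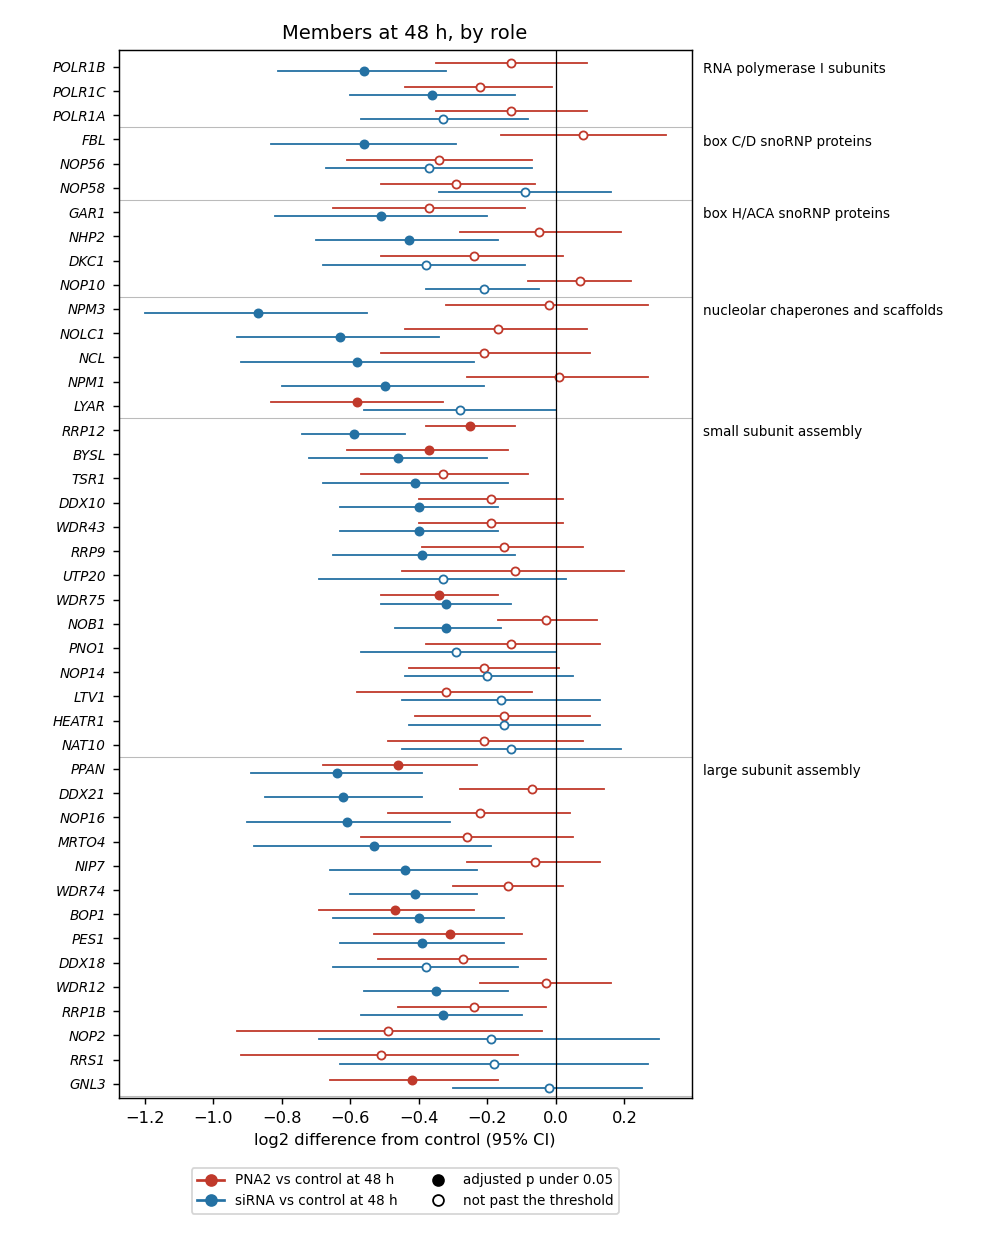
Log2 difference from control at 48 h with its 95% confidence interval for the 43 members, grouped by role, for PNA2 (red, 4 libraries) and siRNA (blue, 4 libraries) against the same 6 controls. Filled points passed the adjusted threshold, and all siRNA points lie left of 0 while 3 PNA2 points lie right of it.

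PNA2 at 48 h was accompanied by falls in part of the members. Of the 43 members 8 fell and none rose, against a background of 8.04% of genes called lower and 8.11% called higher. The median log2 difference was -0.21 (all genes -0.00), 40 members were below 0 and 18 had an unadjusted p under 0.05. In 6 members (14%) every PNA2 library was below every control, as in 4.87% of all genes. PNA2 and siRNA were compared with the same controls, so the lists are not independent of each other.

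LYAR led the PNA2 list, at 1016, 837, 1179 and 1244 with PNA2 against 1288 to 1873 (median 1561) in controls, a difference of -0.58 ± 0.12 (adjusted p = 0.00508). BOP1 was 2010, 1453, 2035 and 2183 against the controls' minimum of 2315 (-0.47 ± 0.11, adjusted p = 0.00891). PPAN was 193, 213, 205 and 233 against a minimum of 243 (-0.46 ± 0.11, adjusted p = 0.00952). The PNA2 and control libraries of these genes did not overlap, nor did those of WDR75 and GNL3. GNL3 was at 2080, 1415, 2311 and 2321 against a minimum of 2447 (-0.42 ± 0.12, adjusted p = 0.0239). WDR75 was 1312, 1152, 1179 and 1274 against a minimum of 1381 (-0.34 ± 0.08, adjusted p = 0.0105). BYSL (857, 639, 840 and 827, -0.37, adjusted p = 0.0312) and RRP12 (970, 863, 781 and 843, -0.25, adjusted p = 0.0138) fell with some overlap. PES1 was the eighth (-0.31, adjusted p = 0.0448).

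The subunits of RNA polymerase I did not pass with PNA2 at 48 h in the fit over both batches. POLR1A was 2603, 1968, 2577 and 2862 (-0.13, adjusted p = 0.407), POLR1B was 1332, 951, 1259 and 1230 (-0.13, adjusted p = 0.418) and POLR1C was 556, 446, 560 and 566 (-0.22, adjusted p = 0.143). In each the library PNA2 2 was the lowest of its group. In the limma fit within batch A, POLR1A (-0.44, adjusted p = 0.0276) and POLR1C (-0.45, adjusted p = 0.0291) were lower. POLR1B did not pass there (-0.37, adjusted p = 0.0861). Within batch B POLR1A was at 0.18, POLR1B at 0.12 and POLR1C at 0.01, and none passed. Some genes that fell with the siRNA had values near control, chosen here after their values were seen: NPM3 was 1038, 852, 736 and 754 (-0.02, 95% interval -0.32 to 0.27), DDX21 was 4743, 4684, 4702 and 4878 (-0.07), and FBL was 6229, 4783, 6141 and 6271 (0.08). NPM1 was 19448, 14675, 18195 and 18675 (0.01). NOP10, which did not pass with the siRNA, was 1478, 1335, 1247 and 1311 (0.07). Some of these differences combine opposite signs. Fitted within batch A and batch B, DDX21 was at -0.30 and 0.16, FBL at -0.17 and 0.33 and NPM1 at -0.25 and 0.27. NPM3 was at 0.08 and -0.13 and NOP10 at 0.09 and 0.05. None of these genes passed in either batch. NOLC1 (5459, 3763, 4874 and 5663), NOP16 (913, 617, 817 and 867), HEATR1 (2019, 1521, 2226 and 2270) and LTV1 (134, 115, 138 and 133) did not pass, although all 4 values of LTV1 were below its controls.

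The batches gave PNA2 values of different size. Against controls of their own batch, the median log2 deviation of the members was -0.27 in PNA2 1 and -0.68 in PNA2 2, and -0.00 and 0.07 in PNA2 3 and 4 of batch B. The siRNA libraries were alike at -0.46 to -0.51, and the controls lay between -0.12 and 0.11. Fitted within batch A, PNA2 lowered 24 members and raised none (median -0.47), against 7.62% of genes lower and 5.86% higher in that fit. Within batch B it lowered none and raised UTP20, a small subunit processing factor (0.33, adjusted p = 0.0363), with a median of 0.03, against 6.38% of genes lower and 6.17% higher. The 8 members called over both batches were picked from these same libraries, which favours members low in both. Their signs by batch are therefore no separate support. All 8 were below 0 in each batch, at -0.89 to -0.28 in A, where all 8 passed. In B they were at -0.29 to -0.10, and none passed (lowest adjusted p = 0.0961). LYAR was at -0.89 and -0.26, WDR75 at -0.44 and -0.24 and RRP12 at -0.28 and -0.22 in A and B. Over both batches, the 8 falls became 5 without control 1, the median was -0.08 without PNA2 2, and the calls of BYSL and GNL3 were lost without single libraries. Over all genes, 1137 called lower became 839 without control 1. Without the library scale no member passed, the median was -0.02 against 0.19 for all genes, and 92.3% of the genes called were higher, against 50.2% with it. MYC deviated by 0.00 and 0.01 in PNA2 1 and 2 and by 0.37 and 0.56 in PNA2 3 and 4.

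**Figure D2:**
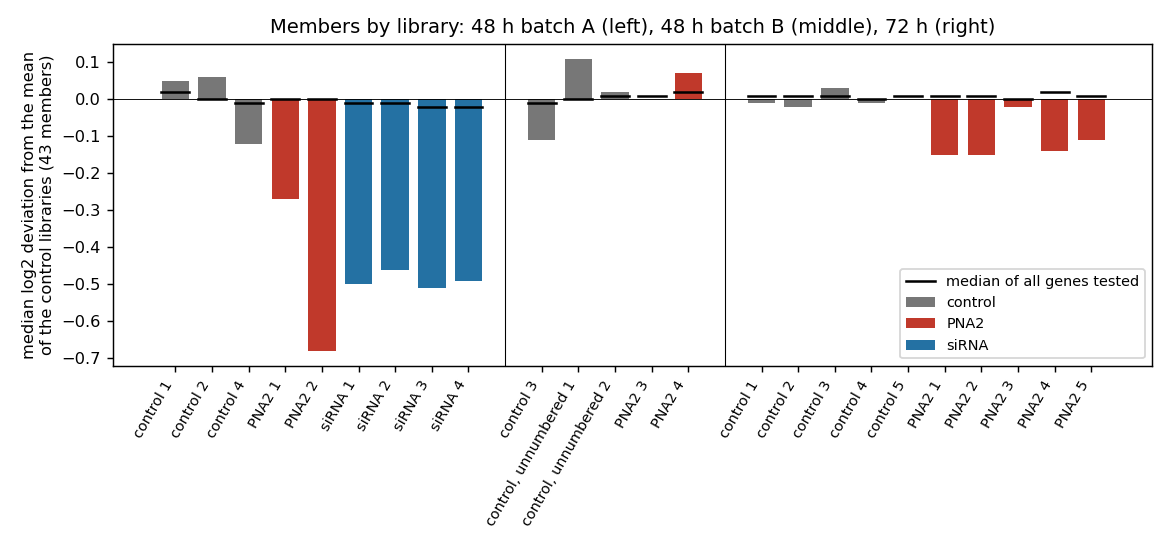
Bars give the median log2 deviation of the 43 members in each library from the mean of the control libraries (same batch at 48 h), and black ticks the median of all genes tested. All siRNA bars reach -0.46 or below, whereas the PNA2 bars at 48 h run from -0.68 to 0.07 and those at 72 h from -0.15 to -0.02.

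The difference between batches was tested for each gene as an interaction. It was called in 8 members, all with a higher PNA2 difference in batch B than in A, against a background of 1.37% of genes in that direction and 1.13% in the other (2.50% in all). They were POLR1A, the large subunit factors RRP1B and WDR12, and the small subunit factors WDR43, UTP20, HEATR1, NAT10 and NOP14. POLR1A was at -0.44 in batch A and 0.18 in batch B (difference 0.62 ± 0.14, adjusted p = 0.0316). UTP20 was at -0.57 and 0.33 (0.91 ± 0.20, adjusted p = 0.032) and NOP14, of the small subunit particle, at -0.54 and 0.11 (0.65 ± 0.12, adjusted p = 0.018). Over all members the median of that difference was 0.50. None of the 8 members that fell with PNA2 over both batches was among these calls (lowest adjusted p = 0.0564, GNL3). Their differences still ran from 0.06 to 0.64. As they were picked from these same libraries, the lack of a call does not show equal falls in both batches. With 2 PNA2 libraries a batch, the 8 calls became 0 without PNA2 3 or PNA2 4, 34 without PNA2 1, 15 without control 4, 2 to 5 without any other control or siRNA library, and 0 without the library scale. Calls in that direction over all genes moved too, from 193 to 11 and 13 without PNA2 3 and PNA2 4. They were 2663 without PNA2 1 and 322 without control 4. Without any other control or siRNA library they were 57 to 152, and without the library scale 22. What differed between the batches is not named in the labels.

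**Figure D3:**
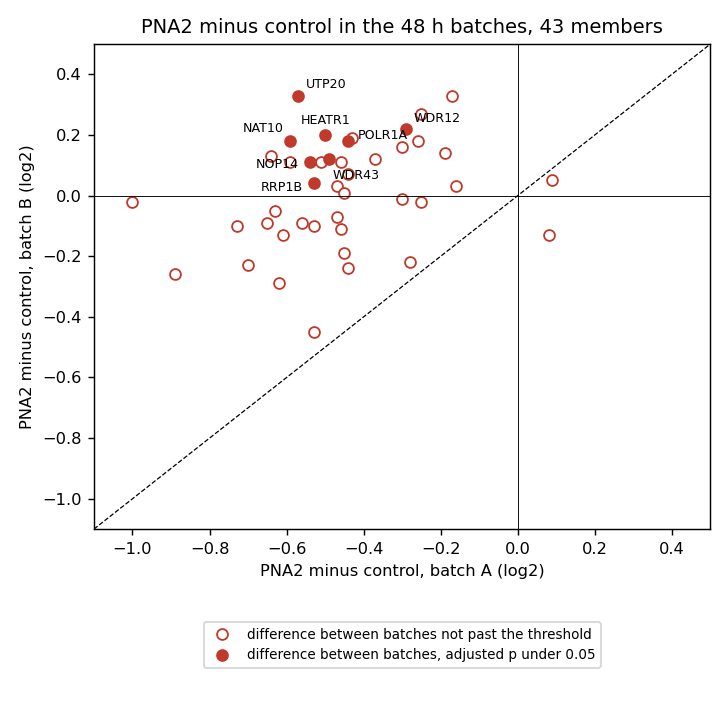
Each point is a member, with its PNA2 minus control log2 difference in batch A (x axis) and batch B (y axis), and the dashed line marks equal values. All points but NPM3 and NOP10 lie above the line, and the 8 filled points, where the batches differed past the threshold, are below 0 in A and above 0 in B.

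Set directly against each other at 48 h, 13 members were higher with PNA2 than with siRNA and 1, GNL3, was lower, against a background of 12.0% of genes higher and 11.5% lower. The median was 0.19. The doses, chemistry and delivery of the agents differ, so this is a comparison of the libraries as made. NPM3 differed most, at 736 to 1038 with PNA2 and 463 to 516 with siRNA (0.85 ± 0.17, adjusted p = 0.00189). FBL (0.64, adjusted p = 0.0033), DDX21 (0.55, adjusted p = 0.0035), NPM1 (0.51, adjusted p = 0.0227), NOLC1 (0.46, adjusted p = 0.0362) and POLR1B (0.43, adjusted p = 0.0203) followed. GNL3 was 1415 to 2321 with PNA2 and 2483 to 2650 with siRNA (-0.40, adjusted p = 0.0496). For WDR75 the difference was -0.02 (95% interval -0.23 to 0.18) and for PPAN 0.19 (-0.08 to 0.45). Within batch A, the one batch with both agents, 5 members were higher and 2 lower and the median was -0.03, against 10.3% of genes higher and 12.0% lower in that fit, so the share of members higher was near the background. The 13 higher members became 29 without PNA2 2, 6 to 8 without any other PNA2 library, 7 or 8 without any siRNA library and 8 without control 2, and the median was 0.35 without PNA2 2. Over all genes, 1702 called higher became 2048, 1397 to 1615, 1280 to 1364 and 1411 in those fits, in that order. The calls of NOLC1, NPM1, POLR1B and GNL3 were lost in some of those fits.

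At 72 h with PNA2 13 of the 43 members fell (30.2%), against a background of 11.7% of 11985 genes called lower. Another 4 (9.3%) rose, which is below the 12.1% of genes called higher. The median was -0.11 (all genes -0.01), and each PNA2 library had a member median between -0.15 and -0.02. In 10 members (23.3%) every PNA2 library was below every control, as in 9.18% of genes, and in 3 (6.98%) every one was above, as in 10% of genes. Values are size-factor-normalized reads. The 72 h libraries were normalized separately from those at 48 h, and their extraction text names 48 h, so their time rests on titles and time entries.

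By role, the falls at 72 h were in 5 of 14 small subunit factors, 4 of 14 large subunit factors and 1 gene of each other group. LTV1 was 258, 307, 271, 290 and 305 with PNA2 against 399, 444, 425, 385 and 407 in controls, a difference of -0.52 ± 0.08 (adjusted p = 0.00177). WDR75 was 785, 866, 707, 1034 and 895 against 1248, 1148, 1285, 1310 and 1127 (-0.52 ± 0.10, adjusted p = 0.00424). HEATR1 was 1119, 1155, 943, 1476 and 1318 against 1688, 1592, 1632, 1727 and 1638 (-0.48 ± 0.11, adjusted p = 0.00832). In all of these the highest PNA2 library was below the lowest control. DDX21 was 2980, 3089, 2275, 3760 and 3639 against 4294, 3952, 4143, 4739 and 4363 (-0.47 ± 0.12, adjusted p = 0.0172), again without overlap. WDR43 (-0.34) and TSR1 (-0.29), both small subunit factors, and DDX18 (-0.39) and RRS1 (-0.30), both of the large subunit, fell too.

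POLR1A fell at 72 h, from 2062, 2190, 1911, 2009 and 2031 in controls to 1740, 1643, 1422, 1650 and 1761 with PNA2 (-0.32 ± 0.07, adjusted p = 0.00962), with no overlap. POLR1B was 662, 769, 650, 745 and 715 against 768, 750, 799, 858 and 701 and did not pass (-0.13). POLR1C was 487, 492, 526, 393 and 313 against 366, 399, 358, 348 and 440 and did not pass either (0.19, 95% interval -0.11 to 0.49). The 3 subunits thus took different values in the same libraries. LYAR was 1257, 1291, 1337, 1475 and 1370 against 1537, 1551, 1676, 1738 and 1609 (-0.27 ± 0.07, adjusted p = 0.0137), again with no overlap. GNL3 was 1999, 1918, 2305, 1917 and 1901 against 2296, 2297, 2447, 2328 and 2447 (-0.24 ± 0.07, adjusted p = 0.0246), where PNA2 3 alone reached the controls. That call was lost without PNA2 2 (adjusted p = 0.0629), control 3 (0.0596) or control 5 (0.059).

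The box H/ACA core split. NOP10 rose, at 1316, 1344, 1811, 1105 and 1183 with PNA2 against 906, 922, 958, 709 and 868 in controls (0.62 ± 0.13, adjusted p = 0.00675), and so did NHP2 (1718 to 2657 against 1401 to 1580, 0.45, adjusted p = 0.0114). GAR1, of the same particle, fell (362 to 457 against 451 to 584, -0.44, adjusted p = 0.0106), and DKC1 did not pass (0.08). NPM3 rose, at 779, 702, 815, 566 and 618 against 491, 504, 534, 436 and 530 (0.47 ± 0.11, adjusted p = 0.0106), and NOB1, the nuclease of the last small subunit cut, rose as well (0.26, adjusted p = 0.0343). FBL was 5528, 6066, 7705, 5132 and 4731 against 4375, 5042, 4652, 4530 and 4270 and missed the threshold (0.33, adjusted p = 0.0548). FBL passed without PNA2 4 (adjusted p = 0.0413) or PNA2 5 (0.0237) and with DESeq2 (0.0263), while NOP58 of its particle fell (-0.28, adjusted p = 0.0144). The snoRNP genes therefore did not move as one group at this time.

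The other members with a named role at 48 h did not pass at 72 h. PPAN was 1287, 592, 767, 1129 and 742 with PNA2 against 991, 1342, 1248, 1418 and 1422 (-0.55, adjusted p = 0.0594), with a wide spread, and it passed without control 1 (adjusted p = 0.0491), PNA2 1 (0.022) or PNA2 4 (0.033) and with DESeq2 (0.0408). BOP1 (1677, 1656, 2070, 1365 and 1373 against 1567, 1684, 1739, 1607 and 1601), BYSL (753, 676, 615, 455 and 659 against 587, 503, 605, 462 and 604) and RRP12 (706, 708, 795, 570 and 718 against 649, 721, 678, 639 and 691) overlapped their controls. NOLC1 (4418, 2866, 3632, 2938 and 3184 against 3668, 3764, 3582, 3056 and 3225), NOP16 (626, 574, 844, 547 and 573 against 674, 666, 692, 576 and 625) and NPM1 (8824, 10055, 10295, 11004 and 11092 against 11073, 9788, 11497, 12264 and 11184) overlapped as well, although NPM1 passed with quantile normalization (-0.41, adjusted p = 0.00565). Of the 8 members lower with PNA2 at 48 h, GNL3, LYAR and WDR75 were also lower at 72 h, which is 37.5% of the 48 h list and 23.1% of the 72 h list. These shares are near those of all 43 members, of which 30.2% fell at 72 h and 18.6% at 48 h. Of the 4 members that rose at 72 h, NHP2, NOB1 and NPM3 had fallen with the siRNA, as had 62.8% of all 43 members. DKC1, NAT10, NOP14, NOP2, NOP56, PNO1 and UTP20 passed in none of the 4 comparisons.

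**Figure D4:**
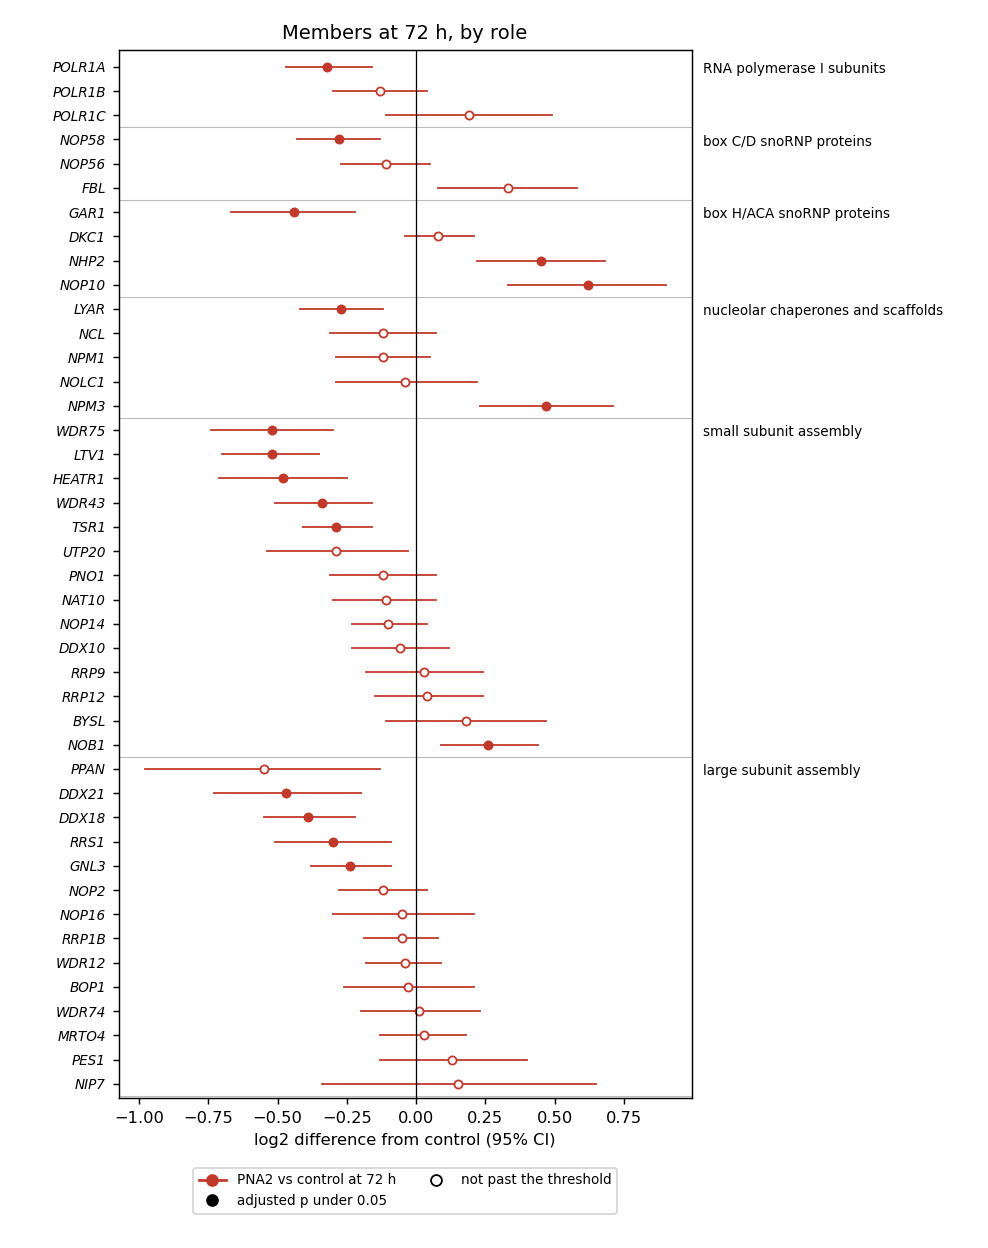
Log2 difference of 5 PNA2 from 5 control libraries at 72 h with its 95% confidence interval for the 43 members, grouped by role, with filled points past the adjusted threshold. The H/ACA proteins run from -0.44 (GAR1) to 0.62 (NOP10), and the called members of the large subunit group all lie left of 0.

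The 3 shortest members by merged exon length, NOP10, NPM3 and NHP2, were among the 4 that rose at 72 h. The 6 shortest members had a median log2 difference of 0.24 and the 6 longest -0.18, and NOP10, at 554 bases, and POLR1A, at 13519, stand at the ends. LTV1 and RRS1, also among the 6 shortest, fell. Across the 43 members Spearman's rho between length and difference was -0.28, and across 11981 genes it was -0.38, so it was no stronger among the members than among all genes. At 48 h the same value for PNA2 was 0.05 over the members and -0.01 over all genes. Its part in the 72 h calls was not tested.

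**Figure D5:**
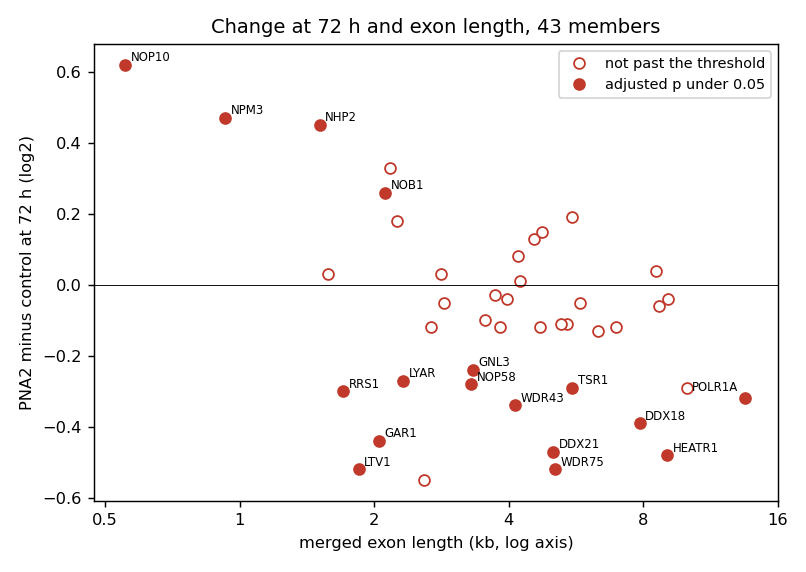
Log2 difference of PNA2 from control at 72 h (y axis) against merged exon length in kilobases (log x axis) for the 43 members, with filled, named points past the threshold. NOP10, NPM3 and NHP2, at the left, are the highest, and POLR1A, DDX18 and HEATR1, at the right, are among the lower ones. LTV1 and RRS1, also short, were called lower, while UTP20, WDR12, DDX10 and RRP12, longer than DDX18, did not pass.

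Among other genes of the pathway, more fell than rose against control with each agent and at each time. A further list of 124 genes (other subunits and factors of RNA polymerase I, other processing factors and the RNA exosome) had 123 tested in each comparison. The siRNA lowered 30 (24.4%, against 8.52% of all genes) and raised none, led by NLE1 (large subunit remodelling, -0.70), TAF1D (of the promoter factor SL1, -0.64) and EXOSC5 (an exosome subunit, -0.58). PNA2 at 48 h lowered 25 (20.3%, against 8.04%) and raised 4 (3.25%, against 8.11%), led by DHX37 (a helicase, -0.59), POLR1G (-0.57) and DDX51 (-0.54), and at 72 h it lowered 25 (20.3%, against 11.7%) and raised 3 (2.44%, against 12.1%), led by BRIX1 (large subunit, -0.56), WDR36 (small subunit, -0.55) and MTREX (the exosome's helicase, -0.54). PNA2 against siRNA gave 13 higher (10.6%, near the 12.0% of all genes) and 4 lower (3.25%, against 11.5%), with NIFK (0.67), EXOSC5 (0.63) and NLE1 (0.61) the largest. UBTF and RRN3, the factors that bring RNA polymerase I to its promoter, passed in no comparison (UBTF -0.14 and RRN3 -0.05 with siRNA). TCOF1 (treacle), a nucleolar partner of UBTF, fell with PNA2 at 48 h (-0.42, adjusted p = 0.0247) and 72 h (-0.22, adjusted p = 0.0377) and was at -0.35 with siRNA (adjusted p = 0.08).

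As a share of the library total the members held 0.82% ± 0.0905 in 48 h controls (SD, n = 6), 0.701% ± 0.0729 with PNA2 (n = 4) and 0.65% ± 0.0136 with siRNA (n = 4). The 48 h totals are of adjusted values with negative ones set to 0, and the SDs of controls and PNA2 span both batches. In batch A PNA2 held 0.727% and 0.594%, against 0.826% to 0.929% in controls. In batch B it held 0.727% and 0.757%, among controls at 0.711% to 0.771%. All siRNA libraries lay in batch A. At 72 h the members held 0.753% ± 0.0168 in controls and 0.649% ± 0.025 with PNA2 (n = 5 each), and the groups did not overlap (0.73% to 0.773% and 0.616% to 0.682%).

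Several members are also hosts of small nucleolar RNAs (snoRNAs). GENCODE 29 places 27 snoRNA genes inside 8 of the 43 members (18.6%), against 1.28% of 19951 protein-coding genes. These hosts are NOP56, NOP58, DKC1, NCL, PPAN, TSR1, WDR43 and GNL3. Of them NOP56, NOP58 and DKC1 encode snoRNP core proteins. None of the 27 snoRNAs passed the filter at 48 h, so host and guest could not be compared.

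The tables differ for 3 members. In the controls, in CPM over the genes in both tables, NOP2 was at 1.91 at 48 h and 177 at 72 h, PPAN at 21.3 and 115, and LTV1 at 12 and 36.9. The other 40 members had ratios from 0.659 to 1.25. All 3 share exon sequence with another gene on the same strand (2550, 1544 and 643 bases), whose part in the gap was not tested. NOP2, at 22.0 to 30.5 adjusted reads in the 48 h controls, was measured with little depth there. For HEATR1, WDR74 and RRS1, which also share some exon sequence, the ratios were 0.908, 0.945 and 1.15.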

How the data were processed

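U2932 RNA was sequenced from TruSeq stranded libraries, per the labels. The build GRCh38 is named in the submitters' processing notes, which also list DESeq2 and HTSeq (0.11.0), the aligner HISAT2 (2.2.1), Trimmomatic and SAMtools (1.7). As deposited, the 72 h table is signal: the authors divided counts by size factors, which were recovered as 0.73 to 1.187, and undoing that division left whole reads (within 0.01) for 100% of values. As deposited, the 48 h table is in another unit: its values show that the authors adjusted them per gene and batch and did not scale them to depth, and 5099 of its genes go below 0.

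At 48 h negative values became 0, each library was divided by its TMM scale (edgeR 4.0.16), and limma 3.58.1 (R 4.3.3) with a mean-variance trend was fitted to log2 of the value plus 1, with group and batch as terms. The 72 h model had the deposited values plus 1, on the log2 scale, and group alone. Genes entered with at least 10 in 4 libraries (48 h) or 5 libraries (72 h). Tests were two-sided, Benjamini-Hochberg adjusted over every gene that entered, at a threshold of 0.05, and the fit was tested on simulated data. The interaction of PNA2 with batch is coded as batch B minus batch A. Batches were read from ties: of 9379 genes with low values, libraries of a batch shared 19.8% to 33.1% and libraries of different batches 0%.

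The 43 members, their roles and the list of 124 other genes were chosen with earlier results of these data known. Values in every library are given for the members called in any comparison, at most the 6 with the largest difference in each, and for the RNA polymerase I subunits. UBTF, RRN3, TCOF1 and the 3 largest called other genes a comparison are named. PES1, UTP20, NOP14 and the remaining members named were added after their values were seen. Gene models are from GENCODE 29 and promoters from RefSeq (GRCh38.p14). At 72 h, 36 rows carried a repeated identifier, and only the first row of each identifier was kept, which left 19818 genes. Total counts limit the precision of low values, and the intervals given cover the spread between libraries. Alternatives were other scalings, filters and pseudocounts, no batch term, single batches, a replicate block, each library left out and, at 72 h, edgeR and DESeq2 1.42.0 on the recovered reads.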

Additional observations from a re-analysis of the deposited data

Results flagged for a closer look

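Of 110 groups of 4 to 10 libraries examined, 10 had 1 library that lay apart from the rest of its group, and chance gives about 1 in 20. At 48 h PNA2 2 was the lowest of its group for POLR1C (446), BYSL (639) and FBL (4783). Among the siRNA libraries, siRNA 1 was low for POLR1C (461), siRNA 2 low for NPM3 (463) and siRNA 3 high for BOP1 (2191). Of these libraries siRNA 3 also had the smallest share of its total in the members (0.63%). At 72 h PNA2 3 was high for GNL3 (2305) and NOP16 (844) and low for MYC (460).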

How the results depend on the processing

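Members called and medians of the members are given below, with the cause of each shift not tested unless the setting itself shows it. Without a library scale, PNA2 at 48 h lowered 0 members (median -0.02), siRNA lowered 1 (-0.15) and PNA2 against siRNA gave 3 higher and 0 lower, of 1785 genes called. Without scale and batch term these were 0 (-0.02), 1 (-0.12, of 1395 genes) and 2 higher, 0 lower (of 1195 genes). Without a batch term, siRNA lowered 15 of 1184 genes called, and 4 members were higher in PNA2 against siRNA. Without a filter, that last contrast gave 8 higher and 0 lower. Within batch A, PNA2 lowered 24 (-0.47), and against siRNA 5 were higher and 2 lower (-0.03). Within batch B, PNA2 lowered 0 and raised 1 (0.03). For the interaction, no scale gave 0 members of 84 genes (0.37) and quantile normalization 4 members (0.40).

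Deviations of same-numbered libraries had correlations of -0.06 to 0.11. Differently numbered libraries are not given for comparison, and some of the 48 h pairs lay in different batches. These correlations therefore cannot decide whether the numbers mark pairs. With a replicate block, PNA2 at 48 h lowered 3 members of 848 genes called, siRNA 6 of 956, and PNA2 against siRNA gave 3 higher and 0 lower of 1819 (0.07). The block left out the controls without a number, and at 72 h it moved no count or median beyond its limits, but FBL passed with it (0.33, adjusted p = 0.0346).

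Leaving out each library in turn, PNA2 at 48 h lowered 5 to 12 members (median -0.28 to -0.08, of 1691 to 3032 genes called). The siRNA lowered 10 to 38 (-0.45 to -0.31, of 1176 to 4321 genes called). PNA2 against siRNA gave 6 to 29 higher and 0 to 1 lower (0.1 to 0.35, of 2499 to 3915 genes called). At 72 h 11 to 14 members fell and 3 to 5 rose (-0.13 to -0.08, the last without control 4 or PNA2 1). The interaction, whose alternatives were all chosen after seeing the data, gave 0 to 34 members (0.3 to 0.72, of 22 to 4256 genes). Among the named members no called value changed direction. At 72 h edgeR called 1392 genes higher and 1439 lower, and DESeq2 1695 and 1628. A lone library of a batch was assumed to vary like the other groups. Low depth limits NOP2 at 48 h.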
